A study of Mus musculus with 16 samples.

Results

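Whole skin of mice that received SDS with Topsym was compared between day 3 and day 1, to ask what changed over that interval in skin that had both agents. The comparison rests on 4 of the 16 libraries of the series, 2 from SDS with Topsym at day 3 and 2 from SDS with Topsym at day 1, and takes in all genes: of 32078 in the deposited table, 19189 had enough reads to be tested. SDS alone at day 3 and SDS alone at day 1, again 2 libraries each, served to show where the interval looked different without Topsym. Libraries of days 0 and 5 of both arms entered the fit and are quoted where a course over days helps. All mice were 7 weeks old. The labels give topical application over 4 days, although titles run to day 5, and they name no strain, sex, dose, body site or starting point from which the days are counted. They do not say whether each library is a mouse of its own, so p-values measure the spread between libraries, which may be technical.

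SDS, sodium dodecyl sulfate, is a detergent that strips lipid and protein from the horny layer of the skin and irritates it. Keratinocytes answer such damage by dividing, by making the stress keratins 6, 16 and 17 in place of part of their usual keratins, and by releasing signals that call in neutrophils. Topsym is a trade name of fluocinonide, a strong topical glucocorticoid, an identity that comes from general knowledge and not from the labels. Glucocorticoids bind the receptor Nr3c1, switch on genes such as Fkbp5 and Tsc22d3, hold back many inflammatory genes, and on long use thin the dermis, whose fibroblasts make collagen.

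Reads per library were 26250173 and 32066246 at day 3 of SDS with Topsym, 25529414 and 27069555 at day 1, and 15199656 to 32066246 over all 16. The 4 libraries detected 23109 to 23740 genes each, and their 10 highest genes took 6.15 to 6.65% of reads. Of the counts from 1 to 20, 69.9 to 76.8% were even in each library, so many fragments may have been counted as 2 reads, and counting intervals and floors below are then too narrow. Counts within a group differed by more than counting noise in every group, with a chi-square per degree of freedom of 3.13 to 6.98, or 1.57 to 3.49 with counts halved (1.65 at day 3 and 1.57 at day 1 of SDS with Topsym). Krt14, the keratin of the basal epidermis, was the highest gene of both day 3 libraries, at 1.57 and 1.53% of reads. Values below are normalised reads, the authors' read counts divided by a size factor per library. Log2 differences are day 3 minus day 1 of log2(normalised reads + 1), with their SE, from limma, and "higher", "lower", "rose" and "fell" are said of genes with a Benjamini-Hochberg adjusted p under 0.05 over all 19189 genes. Genes that make up a count of 5 or fewer are mostly named even where the rule for naming genes passes them by, and those were chosen after their values were seen. Positions are on mouse genome GRCm38 from GENCODE M21.

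Between day 1 and day 3 the skin given SDS with Topsym gained RNA of stress keratins and of the cell division machinery, and lost RNA of collagens, interferon response genes, MHC class II molecules, lymphocytes, macrophages and muscle. In all 8626 genes (45%) were called, 4234 higher (22.1%) and 4392 lower (22.9%). With a log2 difference of at least 1 required as well, 1082 were higher (5.64%) and 1672 lower (8.71%). The libraries of the 2 days did not overlap for 14688 genes (76.5%). The median gene stood at -0.06, and the counts and medians of gene groups below are to be read against these background shares and that median. RNA of whole skin cannot tell fewer cells of a type from less RNA per cell.

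Stress keratins rose steeply. Krt6b, a keratin of hyperproliferating epidermis (ENSMUSG00000023041, chr15:101676023-101680287), had 50973 and 44848 normalised reads at day 3, against 511 and 511 at day 1, 93.7-fold higher (log2 difference 6.54, SE 0.10, adjusted p = 9.82e-17). Its neighbour Krt6a had 79939.5 and 76609 at day 3, against 3710.1 and 3827 at day 1 (log2 difference 4.38, SE 0.07, adjusted p = 9.82e-17). Krt16, their partner in the keratin filament (chr11:100246091-100248902), had 83649.7 and 84067 at day 3, against 5002 and 6318 at day 1 (log2 difference 3.90, SE 0.07). For each of these keratins both day 3 libraries lay far above both day 1 libraries, where 76.5% of all genes did not overlap between the days. Of 22 stress keratin and cornified stress genes tested, 19 were higher, beside 22.1% of all genes, and 1 lower, at a median of 2.28. The lower one was Sprr3, an envelope protein of inner epithelia, at -2.42, a call lost without replicate 1 of day 3.

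Sprr2 genes encode small proline-rich proteins cross-linked into the cornified envelope, and the Sprr2a members came from nearly nothing. Sprr2a3 (chr3:92285417-92291405) had 260.3 and 219 normalised reads at day 3, against 0 reads in both day 1 libraries, at least 201-fold higher with day 1 set at 3 reads. Sprr2a1 had 214 and 225 at day 3, against 0.818 and 0.773 at day 1, which was 2 reads in all (ratio 276, 95% counting interval 76.3 to 2291). Sprr2a2 gave a ratio of 219 (60.2 to 1812), also from 2 reads. Sprr2 genes, like Krt6a and Krt6b, have near copies whose reads the counting could split, so the level of a single member is uncertain. Serpinb3a, a protease inhibitor of stressed squamous epithelium that also has near copies, had 62.2 and 67.7 at day 3, against 0 reads at day 1, at least 54.5-fold higher.

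**Figure D1:**
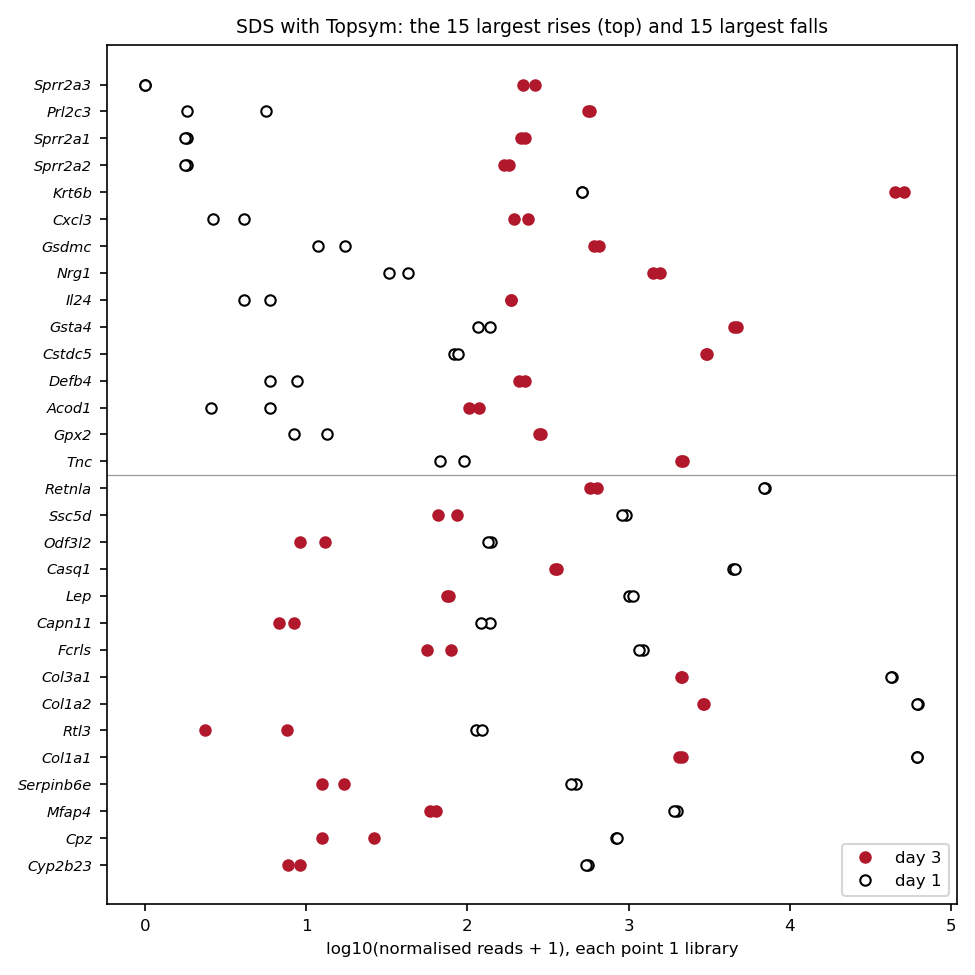
The 15 largest rises (above the line) and the 15 largest falls (below it) in SDS with Topsym, as log10(normalised reads + 1); filled points are the 2 libraries of day 3 and open points the 2 of day 1. Genes were taken only where the days do not overlap, so that separation was set by the choice. The days differ by 20.2-fold or more for Krt6b, Col1a1, Col1a2 and Col3a1. The libraries of a day lie close together except at low counts such as Rtl3 and Cpz.

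Other genes among the 15 largest rises had varied roles. Gsta4, a glutathione transferase that clears lipid peroxidation products, had 4708 and 4513 at day 3, against 115 and 138 at day 1 (log2 difference 5.19, SE 0.12, adjusted p = 6.48e-15). Gpx2, an epithelial glutathione peroxidase, had 277 and 285 at day 3, against 7.36 and 12.4 at day 1 (log2 difference 4.74). Both belong to the target genes of NRF2, the transcription factor of the oxidative stress response, of which 13 of 15 were higher and 2, Hmox1 and Txnrd1, lower (median 0.57). The cystatin family gene Cstdc5 had 3008 and 3067 at day 3, against 81.8 and 85.8 at day 1 (log2 difference 5.16), and the gasdermin gene Gsdmc, of a family of pore-forming proteins, had 611 and 653, against 16.4 and 10.8 (log2 difference 5.46). Prl2c3, a placental prolactin family gene also known as a proliferin, had 572 and 558 at day 3, against 0.818 and 4.64 at day 1 (log2 difference 7.47, SE 0.54). Cstdc5, Gsdmc and Prl2c3 sit in clusters of near copies, which makes their single values uncertain too.

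Growth factors of the EGF family, which bind EGFR and its relatives on keratinocytes, split in 2 directions. Nrg1, the neuregulin ligand of ERBB3 and ERBB4 (ENSMUSG00000062991, chr8:31814551-32884029), had 1563 and 1426 at day 3, against 41.7 and 31.7 at day 1, 40.7-fold higher (log2 difference 5.32, SE 0.24, adjusted p = 2.62e-11). Epgn (epigen) had 6694 and 6664 at day 3, against 714 and 632 at day 1 (log2 difference 3.31, SE 0.10). Areg (amphiregulin) had 779 and 822 at day 3, against 141 and 108 at day 1, and Hbegf, the heparin-binding member, had 2580.4 and 2386, against 472 and 463 (log2 differences 2.69 and 2.41). These 4 ligands and Tgfa (1.35) were the 5 members that rose. Btc (betacellulin) had 443 and 379 at day 3, against 1169 and 1229 at day 1 (log2 difference -1.55). Egf itself, Ereg (epiregulin) and Errfi1, an inhibitor of the receptor, also fell, by 1.03, 0.77 and 0.49 on the log2 scale. That made 5 higher and 4 lower of 10 tested, with the receptor gene Egfr not called. At day 5 of SDS with Topsym, Nrg1 stood at 292 and 309.9, below both day 3 libraries.

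All 30 cell proliferation genes were higher at day 3, at a median of 2.06, where 22.1% of all genes were higher. Ccne1, the cyclin E that drives entry into DNA replication, had 339 and 333 at day 3, against 29.4 and 13.1 at day 1 (log2 difference 4.02, SE 0.29, adjusted p = 6.39e-09). Mcm5, a subunit of the replicative helicase, had 2103 and 2095 at day 3, against 277 and 227 at day 1 (log2 difference 3.06), and Rrm2, which makes deoxynucleotides, had 2463 and 2543, against 362 and 342 (log2 difference 2.83). These are genes of the S phase. Genes of mitosis moved with them: Cdk1, the mitotic kinase, had 1436 and 1424 at day 3, against 227 and 217 at day 1 (log2 difference 2.68, SE 0.10), and the checkpoint kinase gene Bub1 had 359 and 422, against 45.8 and 44.8 (log2 difference 3.07). Mki67, the marker of cycling cells, had 5225 and 5240.3 at day 3, against 1355 and 1259.6 at day 1 (log2 difference 2.00, SE 0.06, adjusted p = 3.02e-13). Its course in this arm ran 3169 and 3048 at day 0, 1355 and 1259.6 at day 1, 5225 and 5240.3 at day 3 and 6523 and 7322 at day 5, so day 1 was the low point.

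Promoters of the proliferation genes are shown because many of these genes rose together and their promoters share short motifs. RefSeq promoters (GRCm38.p6, 250 bases before to 50 after the gene start) were matched for 25 of the 30 by symbol. The cell cycle homology region TTTGAA, read on both strands, occurred in 12 of 25 (48%), against 13% of the promoters of 12998 tested genes. The CCAAT box, CCAAT on either strand, occurred in 20 of 25 (80%), against 38.1% of those promoters. It was also sought in the collagen and fibroblast list below, where it occurred in 2 of 14 matched promoters (14.3%). A match describes the letters and is not a measured site. In the promoters of Cdk1 (chr10:69352863-69353162, minus strand) and Ccnb2 (chr9:70421505-70421804, minus strand), given 5′ to 3′, capitals mark TTTGAA and CCAAT or their reverse complements.
Cdk1: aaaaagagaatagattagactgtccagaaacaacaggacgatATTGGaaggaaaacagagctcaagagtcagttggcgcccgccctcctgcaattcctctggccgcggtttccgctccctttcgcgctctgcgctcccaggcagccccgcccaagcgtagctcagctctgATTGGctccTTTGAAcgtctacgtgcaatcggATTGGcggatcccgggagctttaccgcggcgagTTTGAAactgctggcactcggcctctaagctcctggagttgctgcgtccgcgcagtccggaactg
Ccnb2: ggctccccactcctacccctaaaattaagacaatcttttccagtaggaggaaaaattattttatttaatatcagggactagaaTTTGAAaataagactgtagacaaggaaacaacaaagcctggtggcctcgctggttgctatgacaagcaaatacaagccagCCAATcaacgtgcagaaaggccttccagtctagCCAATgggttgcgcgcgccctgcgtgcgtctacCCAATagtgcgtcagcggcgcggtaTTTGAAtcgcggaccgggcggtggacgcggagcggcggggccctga

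Of 13 basal keratinocyte genes, 8 rose and 2, Krt15 and Dst, fell (median 0.55). Krt14 had 337620 and 329100 at day 3, against 83834 and 83902 at day 1 (log2 difference 1.99, SE 0.05, adjusted p = 9.32e-15), and its partner Krt5 had 199855 and 198593, against 95463 and 94023 (log2 difference 1.07). The integrin subunit gene Itga3, whose product anchors basal cells, had 10593 and 10674 at day 3, against 4396 and 4400.5 at day 1 (log2 difference 1.27). Krt15, a keratin of quiescent basal and hair follicle bulge cells, went the other way, with 13739.5 and 14299 at day 3, against 50536 and 50554 at day 1 (log2 difference -1.85). The summed level of the 13 genes was 658660 and 649093 at day 3, against 326288 and 324680 at day 1. Krt14 and Krt5 made up most of that sum and carried its rise. Trp63, Col17a1 and Lamb3 were not called.

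Epidermal differentiation genes were divided, 12 higher and 9 lower of 26, at a median of 0.04. Flg, the filaggrin gene whose product bundles keratin and yields the natural moisturising factor, had 8051 and 8047 at day 3, against 2956 and 3189.6 at day 1 (log2 difference 1.39, SE 0.05). Lor, loricrin, the chief protein of the cornified envelope, had 41307 and 35763 at day 3, against 125282 and 133039 at day 1 (log2 difference -1.75, SE 0.11, adjusted p = 1.28e-09). Lce1b, a late envelope gene with near copies, had 1404 and 1318 at day 3, against 5395 and 5246 at day 1 (log2 difference -1.97), and the suprabasal keratin Krt77 had 47089 and 48308, against 138228 and 138384 (log2 difference -1.54). The days did not overlap for any of these genes, nor for 76.5% of all genes. Lce1b and Lor thus fell beside the rise of the Sprr2a genes, which encode other proteins of the same envelope.

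Lipid genes of the barrier moved by smaller steps. Of 15 genes for ceramides and their processing, 10 were higher and 3 lower (median 0.45), with Cers3, the synthase of very long ceramides, at 3537 and 3699 on day 3 and 1943 and 1989 on day 1 (log2 difference 0.88, SE 0.05). The 3 that fell were Alox12b and Aloxe3, lipoxygenases needed for the lipid envelope, and Asah1, a ceramidase. Of these Aloxe3 had 1768 and 1873 at day 3, against 3941 and 3606 at day 1 (log2 difference -1.05). Of 22 cholesterol synthesis genes, 19 rose and 0 fell, at a median of 0.56. Sqle, squalene epoxidase, had 4607 and 4650.5 at day 3, against 2629 and 2583 at day 1 (log2 difference 0.83, SE 0.05). Of the 19, 3 had a log2 difference of at least 1. Of 20 fatty acid synthesis genes, 9 rose and 4 fell (Elovl5, Srebf1, Fads1 and Dgat2), with Fasn, the synthase itself, at 7098 and 7272 on day 3 and 4972 and 4927 on day 1.

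Collagens fell steeply. Col1a1, the alpha 1 chain of type I collagen (ENSMUSG00000001506, chr11:94936224-94953042), had 2058 and 2145 normalised reads at day 3, against 61932 and 61718 at day 1, 29.4-fold lower (log2 difference -4.88, SE 0.05, adjusted p = 7.24e-19). Col1a2, the other chain of that collagen, had 2939 and 2889.6 at day 3, against 62968 and 62118 at day 1 (21.5-fold lower). Col3a1, type III collagen of young and healing dermis, had 2132 and 2114 at day 3, against 42997 and 42888 at day 1 (20.2-fold lower, log2 difference -4.34, SE 0.05). In each, the 2 libraries of a day agreed closely and the days were far apart. Each of the 23 collagen and fibroblast genes fell (median -2.04), where 22.9% of all genes were lower. Their summed level was 49473 and 49768 at day 3, against 300373 and 299796 at day 1.

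Smaller matrix genes fell with the collagens. Mfap4, a microfibril protein of elastic fibres, had 57.3 and 63.0 at day 3, against 1994 and 1925 at day 1 (log2 difference -5.00, SE 0.10, adjusted p = 1.32e-15). Cpz, a carboxypeptidase with a Wnt-binding domain, had 11.5 and 25.5 at day 3, against 832 and 851 at day 1 (log2 difference -5.54, SE 0.74). Pi16, a marker of fibroblasts around vessels, had 996 and 909.6 at day 3, against 6706 and 6931 at day 1 (log2 difference -2.84). Ssc5d, a secreted scavenger receptor, fell by 3.64 and Col5a1 by 2.67 on the log2 scale. These 5 genes lay lower in both day 3 libraries than in either day 1 library.

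Repair proteases and matrix genes mostly rose over the same days, with 14 of 24 higher and 5 lower (median 0.77). Their summed level fell all the same, at 26403 and 26558 on day 3, against 35597 and 35852 on day 1, and Fn1 carried that fall. The 5 lower, Fn1, Postn, Mmp9, Mmp14 and Plau, were 3 without replicate 2 of day 3 or without replicate 1 of day 1. Tnc, tenascin C of wound edges (chr4:63959785-64047015), had 2103 and 2162 at day 3, against 94.1 and 66.5 at day 1, 26.6-fold higher (log2 difference 4.74, SE 0.15, adjusted p = 2.39e-13). Mmp13, a collagenase, had 211 and 221 at day 3, against 20.4 and 28.6 at day 1 (log2 difference 3.11), and Mmp10, a stromelysin, had 55.7 and 61.7, against 3.27 and 3.09 (log2 difference 3.83). Fn1, fibronectin, had 2539 and 2388 at day 3, against 14330 and 14569 at day 1 (log2 difference -2.55), and Postn, periostin, had 762 and 747, against 4011 and 3964 (log2 difference -2.40). Has3, a hyaluronan synthase of keratinocytes, had 905 and 789.6 at day 3, against 66.3 and 38.7 at day 1 (log2 difference 4.03, SE 0.19).

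Genes of the interferon response fell nearly as 1 block. Ifit3, an antiviral protein induced by interferon (ENSMUSG00000074896, chr19:34583531-34588731), had 81.9 and 83.8 at day 3, against 834 and 759 at day 1 (log2 difference -3.25, SE 0.23, adjusted p = 4.86e-09). Irf7, the transcription factor that amplifies the response, had 229 and 188 at day 3, against 1365 and 1309 at day 1 (log2 difference -2.68, SE 0.13), and Oasl2 had 246 and 259, against 1389 and 1400.3 (log2 difference -2.46). Isg15, a ubiquitin-like modifier, had 29.5 and 23.5 at day 3, against 124 and 111 at day 1 (log2 difference -2.12). Of 25 interferon response genes, 23 were lower and 0 higher, with Ifi44 and Cxcl10 not called, at a median of -1.47. Day 1 was already below day 0 for Ifit3, which had 3405 and 3605 at day 0 of SDS with Topsym. At day 0 of SDS alone it had 387 and 339.8, so the arms stood apart in this gene at the start of the labelled course.

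Interferon-regulated promoters carry the interferon-stimulated response element, here GAAA, any 2 bases and GAAA again, on either strand. It was found in 12 of the 18 list members with a RefSeq promoter (66.7%), against 3.15% of the 12998 promoters. Ifit3 (chr19:34583279-34583578, plus strand) holds 2 matches and Isg15 (chr4:156200769-156201068, minus strand) holds 3 that overlap each other; capitals mark the matches.
Ifit3: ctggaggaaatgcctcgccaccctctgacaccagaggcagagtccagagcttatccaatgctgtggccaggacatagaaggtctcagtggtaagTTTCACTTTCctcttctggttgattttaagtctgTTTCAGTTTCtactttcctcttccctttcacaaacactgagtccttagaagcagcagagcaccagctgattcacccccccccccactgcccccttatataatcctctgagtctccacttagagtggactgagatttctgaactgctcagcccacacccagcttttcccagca
Isg15: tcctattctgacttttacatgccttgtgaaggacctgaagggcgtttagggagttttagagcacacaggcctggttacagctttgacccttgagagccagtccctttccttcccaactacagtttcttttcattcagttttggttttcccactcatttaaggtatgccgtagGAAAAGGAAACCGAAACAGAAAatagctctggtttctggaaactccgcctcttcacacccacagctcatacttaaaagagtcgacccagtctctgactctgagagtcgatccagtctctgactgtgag

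MHC class II genes, which display antigen on dendritic cells, macrophages and B cells, fell for 10 of 11 members, with 0 higher (median -2.54). H2-Ab1, the beta chain of the I-A molecule, had 1018 and 1146 at day 3, against 8794 and 8884 at day 1 (log2 difference -3.03, SE 0.05, adjusted p = 2.85e-16). H2-Eb1, the beta chain of I-E, had 949 and 934 at day 3, against 7561 and 7404 at day 1 (log2 difference -2.99). Cd74, the invariant chain that guides these molecules to the endosome, had 3027 and 3149 at day 3, against 26132 and 25797 at day 1 (log2 difference -3.07), and H2-DMa, which loads the peptide, fell by 2.72 on the log2 scale. Each was several-fold lower in both day 3 libraries. Promoters of class II genes are known for the Y box, here CTGATTGG on either strand, whose letters include the reverse complement of CCAAT. It was in 3 of 8 matched members (37.5%), against 5.66% of all promoters, and stands in capitals in that of H2-Eb1 (chr17:34305617-34305916, plus strand).
H2-Eb1: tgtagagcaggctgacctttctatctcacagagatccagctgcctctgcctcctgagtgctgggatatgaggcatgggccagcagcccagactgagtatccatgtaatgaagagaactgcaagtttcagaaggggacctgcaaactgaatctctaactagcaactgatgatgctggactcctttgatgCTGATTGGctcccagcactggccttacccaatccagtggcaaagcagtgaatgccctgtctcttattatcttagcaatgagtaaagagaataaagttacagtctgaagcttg

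Markers of the cells that carry class II fell too. Of 14 dendritic and Langerhans cell genes 10 were lower and 0 higher (median -1.32). Cd207, langerin of Langerhans cells, had 46.7 and 71.7 at day 3, against 353 and 341 at day 1 (log2 difference -2.56, SE 0.23, adjusted p = 1.06e-07), and Flt3, a receptor of dendritic cell precursors, had 45.8 and 53.6, against 321 and 312 (log2 difference -2.65). The summed level of the 14 was 7940.2 and 7959.7 at day 3, against 12337 and 12454 at day 1. Most of that sum came from Epcam, with means of 3749 at day 3 and 3623 at day 1, and Clec10a, with 3400 and 6378. Epcam was not called. The part of cell number in the class II result was not tested.

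Lymphocyte genes were low at both days and lower at day 3. Among 16 T cell and NK cell genes 9 fell and 0 rose (median -1.83), and their summed level was 767 and 872 at day 3, against 1624 and 1691 at day 1. Trbc2, the highest of the 16 and a large part of that sum, had means of 346.1 at day 3 and 410.2 at day 1. It was not called (log2 difference -0.24, adjusted p = 0.124). Cd3e, a chain of the T cell receptor complex, had 18.01 and 14.1 at day 3, against 82.6 and 133 at day 1 (log2 difference -2.64, SE 0.52), and Trdc, the constant region of the delta chain used by dendritic epidermal T cells of mice, had 25.4 and 36.2, against 129 and 153 (log2 difference -2.18). B cell and plasma cell genes were lower for 6 of 7, or for 3 without replicate 2 of day 3. Among them Ighm, the heavy chain of IgM, had 222 and 245 at day 3, against 1125 and 1059 at day 1 (log2 difference -2.22, SE 0.16). All of these values rest on low counts except those of Ighm and Trbc2.

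Of 20 monocyte and macrophage genes, 15 fell and 2 rose (median -1.12). The 2 higher, Nos2 and Cd14, were 1 without replicate 2 of day 3 or without replicate 1 of day 1. Ccr2, the receptor that brings monocytes out of the blood, had 252 and 268 at day 3, against 1327 and 1330.0 at day 1 (log2 difference -2.35, SE 0.22, adjusted p = 1.95e-07). Arg1, arginase, had 223 and 235 at day 3, against 1062 and 1081 at day 1 (log2 difference -2.22), and C1qa, a complement gene of resident macrophages, had 3785 and 3524, against 11386 and 11136 (log2 difference -1.62). The largest falls of all also held Fcrls, a marker of resident macrophages and microglia in mice, with 78.6 and 55.0 at day 3, against 1226 and 1152 at day 1 (log2 difference -4.16), and Retnla, a product of alternatively activated macrophages, with 636 and 575, against 7067 and 6885 (log2 difference -3.53). Nos2, which makes nitric oxide, rose on low counts, with 15.6 and 28.8 at day 3, against 1.64 and 3.87 at day 1 (log2 difference 2.63, adjusted p = 0.00252).

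Among 12 CXC chemokines, many of which attract neutrophils, 8 rose and 2, Pf4 and Cxcl14, fell, and Ppbp missed the threshold. Among 15 CC chemokines, which mostly call monocytes and lymphocytes, 8 fell and 3, Ccl3, Ccl4 and Ccl20, rose. Cxcl3, a ligand of the neutrophil receptor CXCR2 (chr5:90786103-90789600), had 237 and 194 at day 3, against 1.64 and 3.09 at day 1 (log2 difference 6.04, SE 0.63, adjusted p = 6.21e-07). Cxcl2 had 337 and 371 at day 3, against 20.4 and 18.6 at day 1 (log2 difference 4.12), and Cxcl1 had 359 and 389, against 62.2 and 61.9 (log2 difference 2.57). Over 27 chemokines, 11 were higher and 10 lower (median -0.16). Of 18 neutrophil genes 10 were higher and 2 lower (median 1.04), and the 2 lower, Mmp9 and Il1r2, were 1 without replicate 2 of day 3 or without replicate 1 of day 1. S100a9, a calcium-binding protein abundant in neutrophils and also made by stressed keratinocytes, had 1519 and 1352 at day 3, against 229 and 297 at day 1 (log2 difference 2.45, SE 0.11), and its partner S100a8 had 539 and 496, against 93.2 and 109 (log2 difference 2.35). Ly6g, which defines mouse neutrophils, had 0 reads in all 4 libraries of SDS with Topsym, and Retnlg and Mmp8, 2 further neutrophil genes, passed no threshold (log2 differences 1.26 and 0.47). The summed level of the 18 genes was 5659 and 5407 at day 3, against 6879 and 7051 at day 1. Il1r2, also on the list of glucocorticoid targets, carried that fall: without it, in a sum added after the values were seen, the other 17 genes came to 4012 and 3803 at day 3, against 1542 and 1687 at day 1. S100a9 and S100a8 made up a large part of that day 3 sum and of its rise.

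Of 22 cytokine genes, 12 rose and 2, Csf1 and Tgfb1, fell (median 0.58). Il33, an alarmin stored in keratinocyte nuclei, had 3988 and 4052 at day 3, against 464 and 505 at day 1 (log2 difference 3.05, SE 0.09, adjusted p = 2.39e-13). Il24, an interleukin of the IL-20 family that acts on keratinocytes, had 186 and 186 at day 3, against 4.91 and 3.09 at day 1 (log2 difference 5.25), and Il1b had 349 and 349, against 128 and 133 (log2 difference 1.41). Csf1, the growth factor of macrophages, went down, with 1035 and 1017 at day 3, against 2877 and 2820 at day 1 (log2 difference -1.47). Csf3, the growth factor of neutrophils, had 16.4 and 20.1 at day 3, against 3.27 and 10.1 at day 1 and missed the threshold (adjusted p = 0.0595). Acod1, which makes itaconate in activated myeloid cells, had 116 and 102 at day 3, against 4.91 and 1.55 at day 1 (log2 difference 4.82).

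Of 14 antimicrobial genes of the epidermis, 9 rose and 2, Pglyrp1 and Wfdc21, fell (median 1.24). Defb4, a beta-defensin, had 227 and 208 at day 3, against 4.91 and 7.73 at day 1 (log2 difference 4.93, SE 0.65), and Defb14 had 404 and 435, against 92.4 and 90.5 (log2 difference 2.18), both with near copies in the genome. Pglyrp2, an amidase that cuts bacterial peptidoglycan, had 197 and 185 at day 3, against 53.2 and 82.0 at day 1 (log2 difference 1.52). Acute phase genes leaned the other way, with 8 of 16 lower and 4, Saa1, Saa2, Saa3 and Lcn2, higher (median -0.34), although the 8 lower came to 5, 5 and 4 without replicate 1 of day 3, replicate 2 of day 3 and replicate 1 of day 1. Saa3, a serum amyloid made in injured skin, had 1364 and 1486 at day 3, against 404 and 367 at day 1 (log2 difference 1.88, SE 0.30), and Orm1, orosomucoid, had 1839.5 and 1917, against 5431 and 5370.1 (log2 difference -1.52).

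Genes that glucocorticoids switch on were lower at day 3 than at day 1, in the arm that had the glucocorticoid. Fkbp5, a chaperone of the receptor and one of its most sensitive targets (chr17:28399094-28517527), had 6606 and 6687 at day 3, against 12105 and 12164 at day 1 (log2 difference -0.87, SE 0.04, adjusted p = 5.17e-11). Tsc22d3, the leucine zipper protein GILZ, had 5456 and 5299 at day 3, against 12032 and 11926 at day 1 (log2 difference -1.16, SE 0.05), and the zinc finger gene Zbtb16 had 2047 and 2097, against 4139.5 and 4196 (log2 difference -1.01). Il1r2, a decoy receptor for interleukin 1, had 1646 and 1604 at day 3, against 5337 and 5364 at day 1 (log2 difference -1.72). Of 24 targets 19 were lower and 2, Per2 and Lcn2, higher (median -0.55), and 7 of the 19 had a log2 difference of -1 or below. Fkbp5 had 1724 and 1785 at day 0 and 4615 and 4614 at day 5 of this arm, so its peak among the 4 days was at day 1 and day 3 was still above day 0.

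Energy and fat genes showed a mixed picture. Pdk4, a kinase that keeps pyruvate from oxidation and is induced by glucocorticoids and fasting, had 13262 and 13209 at day 3, against 25104 and 25147 at day 1 (log2 difference -0.92, SE 0.11, adjusted p = 2.14e-06). Lep, leptin of fat cells (chr6:29060220-29073877), had 75.3 and 73.7 at day 3, against 1011 and 1066 at day 1, 13.9-fold lower (log2 difference -3.78, SE 0.41). Adipoq, adiponectin, another hormone of fat cells, rose instead, with 2968 and 2928 at day 3, against 1029 and 1096 at day 1 (log2 difference 1.47, SE 0.15). Pck1, used by fat cells to make glycerol for triglycerides, had 9563 and 10096 at day 3, against 3114 and 3097 at day 1 (log2 difference 1.66). Across 19 adipocyte genes 8 were higher and 5, Lep, Car3, Gpd1, Slc2a4 and Cebpa, lower (median 0.33), and their summed level was 97235 and 98340.2 at day 3, against 102389 and 102080 at day 1. Car3, with means of 11880 at day 3 and 33030 at day 1, carried the fall of that sum. Lipe, hormone-sensitive lipase, had 2743 and 2719 at day 3, against 1902 and 2055 at day 1 (log2 difference 0.47). Pnpla2, the first lipase of triglyceride breakdown, had 11150.1 and 11286, against 12794 and 12993, a log2 difference of -0.20 that was called here (adjusted p = 0.0221) but not with TMM factors or with any 1 of the 4 libraries left out.

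Of 26 fatty acid oxidation genes, 9 rose and 6 fell. Ehhadh, a peroxisomal enzyme, stood out with 1465 and 1559 at day 3, against 124 and 172 at day 1 (log2 difference 3.36, SE 0.17, adjusted p = 8.72e-11). Of 17 lipolysis genes, 6 rose and 4 fell, and the 4, Pnpla2, Mgll, G0s2 and Hcar1, were 1 without replicate 1 of day 3, 1 without replicate 1 of day 1 and 2 without replicate 2 of day 1. Of 20 glycolysis and hypoxia genes, 13 rose and 3, Hk2, Aldoa and Adm, fell (median 0.56), with the glucose carrier Slc2a1 at 4770.3 and 4930.0 on day 3 and 1808 and 1845 on day 1 (log2 difference 1.41). Vegfa, the vessel growth factor, had 3398 and 3316 at day 3, against 1283 and 1317 at day 1 (log2 difference 1.37).

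Skeletal muscle genes, from the thin muscle sheet below the dermis, fell in 18 of 19 cases and rose in 1 (median -1.19). The higher one, Myog, a regulator of muscle formation, was lost without replicate 1 of day 3 or without replicate 2 of day 1. Casq1, the calcium store protein of fast muscle, had 359 and 351 at day 3, against 4422 and 4572 at day 1 (log2 difference -3.66, SE 0.10, adjusted p = 3.24e-14), and Pvalb, parvalbumin of fast fibres, had 1919 and 1754, against 10999 and 10988 (log2 difference -2.58). The summed level of the 19 genes was 294623 and 300364 at day 3, against 673214 and 678382 at day 1. Among muscle wasting and FoxO genes, 8 of 12 were lower and 1 higher. Trim63, the ubiquitin ligase MuRF1, had 6542 and 6444 at day 3, against 11576 and 11641 at day 1 (log2 difference -0.84), and Mstn, myostatin, had 106 and 125, against 1116 and 1172 (log2 difference -3.31). The higher one, Ctsl, a lysosomal protease of many cell types, had 38061 and 37534 at day 3, against 19288 and 18856 at day 1. Summed muscle and collagen levels thus fell where the summed basal keratinocyte level rose through Krt14 and Krt5. Normalised reads are relative within a library, and the part of this shift in the other results was not tested.

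Vessel, nerve and pigment markers moved unevenly, where 22.1% of all genes were higher and 22.9% lower. The endothelial counts lay near those shares. Endothelial genes were higher for 3 of 17 (Selp, Icam1 and Cdh5) and lower for 4 (Cldn5, Tek, Vcam1 and Egfl7, median -0.02), counts that fell to 1 higher without replicate 1 of day 3 or without either replicate of day 1, and to 2 lower without replicate 1 of day 1. Cldn5, a tight junction protein of vessels, had 264 and 237 at day 3, against 535 and 577 at day 1 (log2 difference -1.15, SE 0.18). Of 12 smooth muscle and pericyte genes, 8 fell and 1 rose, Synpo2, which was lost without replicate 2 of day 3 or replicate 1 of day 1 (median -0.90), with Acta2, smooth muscle actin, at 2237 and 2245 on day 3 and 6412 and 6409 on day 1 (log2 difference -1.52). Red blood cell genes were lower for 5 of 7, the globin genes Hba-a1, Hba-a2, Hbb-bs and Hbb-bt and the heme enzyme gene Alas2, with a summed level of 1728 and 1396 at day 3, against 3219 and 3533 at day 1. Schwann cell and nerve genes were lower for 4 of 10, with the nerve growth factor receptor gene Ngfr at 89.2 and 86.5 on day 3 and 423 and 479 on day 1 (log2 difference -2.34). Pigment cell genes were lower for 3 of 7, Dct, Pmel and Mitf, or for 1 without replicate 2 of either day. Mast cell genes were higher for 3 of 10, Hdc, Cpa3 and Tpsb2, and lower for 1, Mcpt4, or higher for 1 without replicate 1 of day 3 or replicate 2 of either day, and lower for 0 without replicate 2 of day 3. Of these Hdc, which makes histamine, had 683 and 718 at day 3, against 214 and 233 at day 1 (log2 difference 1.64).

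Of 15 hair follicle stem cell genes, 10 fell and 3 rose (median -0.58). The 3 higher, Sox9, Foxc1 and Itga6, were 1 without replicate 2 of day 3 or without replicate 1 of day 1. Lgr6, a receptor that marks stem cells of the follicle isthmus, had 220.2 and 258 at day 3, against 1476 and 1530.2 at day 1 (log2 difference -2.65, SE 0.12, adjusted p = 2.91e-11). Cd34, which marks bulge stem cells and also vessels and fibroblasts, had 1262 and 1253 at day 3, against 6883 and 6635 at day 1 (log2 difference -2.43). Lgr5 had 42.6 and 37.5 at day 3, against 91.6 and 85.8 at day 1, and was not called in this fit (log2 difference -1.13, SE 0.95, adjusted p = 0.372), although edgeR, DESeq2 and a fit of the 4 libraries alone called it lower. Of 26 hair cycle signals, 9 fell and 5 rose (Wnt4, Wnt10a, Bmp7, Grem1 and Foxn1). Wnt4, made by growing epithelium, had 4647 and 4880.4 at day 3, against 1502 and 1505 at day 1 (log2 difference 1.66), whereas Wnt10b, a signal of hair growth, had 19.6 and 32.2, against 93.2 and 79.6 (log2 difference -1.74). Of 17 sebaceous gland genes, 6 rose and 8 fell, and hair shaft and inner root sheath genes were higher for 1 of 19 (Tchh) and lower for 3 (Krt28, Krt33a and Gata3). Of all genes 22.1% were higher and 22.9% lower. The higher share of the hair cycle signals and both shares of the hair shaft list did not exceed these.

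Clock, immediate early and heat shock genes are known to follow the hour and the handling of a tissue. Of 15 clock genes, 9 fell and 3, Clock, Per2 and Cry1, rose (median -0.25), with Dbp, an output gene of the clock, at 95.8 and 99.2 on day 3 and 279.7 and 293 on day 1 (log2 difference -1.54). Nr1d1, a repressor in the clock, had 1443 and 1526 at day 3, against 3183 and 2975 at day 1 (log2 difference -1.05). Of 18 immediate early genes, 8 fell and 5 rose (Fosl1, Ier3, Nr4a1, Junb and Egr2), and none of the 8 had a log2 difference of -1 or below. Of 16 unfolded protein and heat shock genes, 6 rose and 5 fell (Hspa1a, Hspa1b, Hspb1, Herpud1 and Chac1). Of 13 mitochondrially encoded genes, 3 rose and 0 fell, and the 3, mt-Nd1, mt-Nd3 and mt-Atp8, were 1 without replicate 2 of day 3 or without replicate 1 of day 1. The share of mitochondrially encoded genes that rose was near the 22.1% of all genes that were higher. The part of the hour of collection in the values of these lists was not tested.

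The rest of the 15 largest falls had scattered roles. Cyp2b23, a cytochrome P450, had 8.19 and 6.70 at day 3, against 562 and 539.7 at day 1 (log2 difference -6.04, SE 0.69, adjusted p = 1.84e-06). It had 0 and 8.13 at day 0 of this arm, so the day 1 level stood above both neighbours. Serpinb6e, a clade B serpin, had 11.5 and 16.1 at day 3, against 471 and 439 at day 1 (log2 difference -4.97). Rtl3, a gene derived from a retrotransposon, Odf3l2, related to an outer dense fibre protein of sperm, and Capn11, a calpain, fell by 4.82, 3.64 and 4.11 on the log2 scale, each to a low count at day 3.

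**Figure D2:**
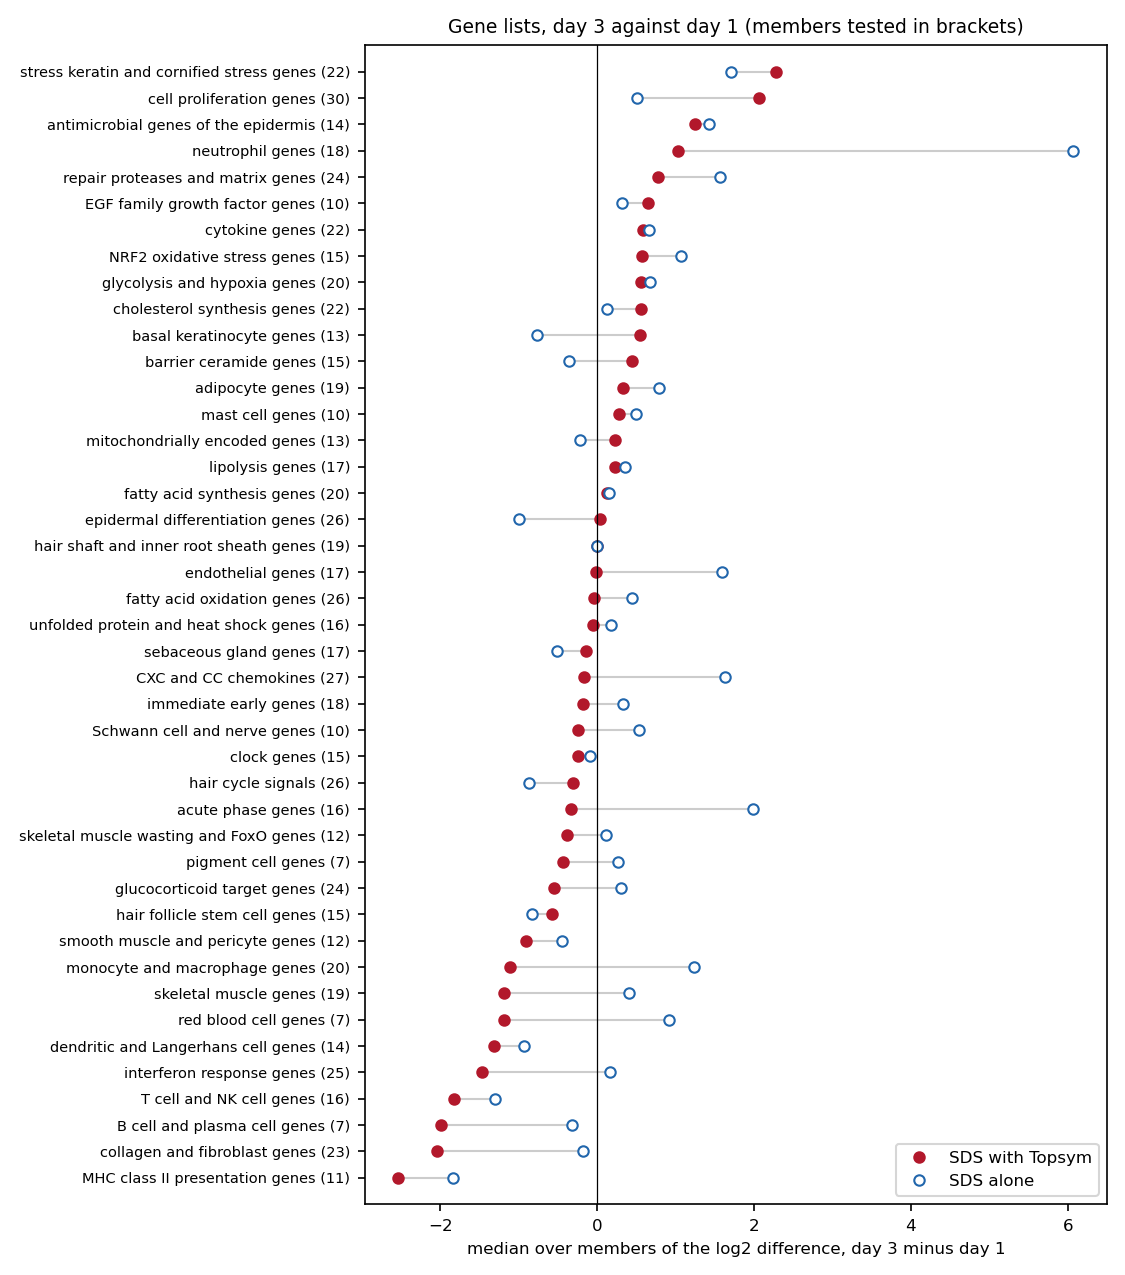
Median log2 difference between day 3 and day 1 over the tested members of each of 43 gene lists (member number in brackets), filled for SDS with Topsym and open for SDS alone; lists are ordered by the first. Stress keratin and proliferation genes lie at 2.28 and 2.06 with Topsym, collagen and MHC class II genes at -2.04 and -2.54, and the neutrophil list shows the widest gap, 1.04 with Topsym and 6.07 with SDS alone.

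The same interval in SDS alone, which shares no library with the comparison above, showed where Topsym went with a different change. There 8099 genes (42.2%) were called, 4537 higher (23.6%) and 3562 lower (18.6%), and with a log2 difference of at least 1 these shares were 7.61 and 6.63%. Both arms called 2030 genes higher (10.6%) and 1795 lower (9.35%), and 1413 moved in opposite directions (7.36%). Of those, 514 rose with Topsym and fell in SDS alone (2.68%), and 899 fell with Topsym and rose in SDS alone (4.68%). A test of the difference between the 2 arms' changes called 6683 genes (34.8%), 3197 with the more positive change under Topsym (16.7%) and 3486 with the more negative (18.2%), or 4.78 and 9.19% where the difference had to reach 1 as well. The balance turned under other scalings, with 3617 more positive and 3156 more negative under TMM factors and 3930 and 3674 in edgeR.

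Proliferation and basal keratinocyte genes had the more positive change with Topsym. All 30 proliferation genes passed that test, with a median change of 2.06 with Topsym and 0.51 in SDS alone. Mki67 in SDS alone had 1467 and 1522 at day 3, against 1538 and 1534 at day 1, a difference of -0.04 beside 2.00 with Topsym (difference between arms 2.04, SE 0.09, adjusted p = 3.87e-11). Of 13 basal keratinocyte genes 11 had the more positive change with Topsym and 1 the more negative, and of 26 differentiation genes 20 and 4. Nrg1 in SDS alone had 419 and 433 at day 3, against 118 and 119 at day 1, so that its rise was steeper with Topsym by 3.48 (SE 0.34, adjusted p = 5.03e-07). Pclaf, a clamp-binding factor of DNA replication, had 941 and 878 at day 3 of SDS with Topsym, against 50.7 and 41.0 at day 1, and 128 and 117 at day 3 of SDS alone, against 54.4 and 67.2 at day 1 (difference between arms 3.28). Depdc1a, a mitotic gene, rose with Topsym (2.19) and fell in SDS alone (-1.33).

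**Figure D3:**
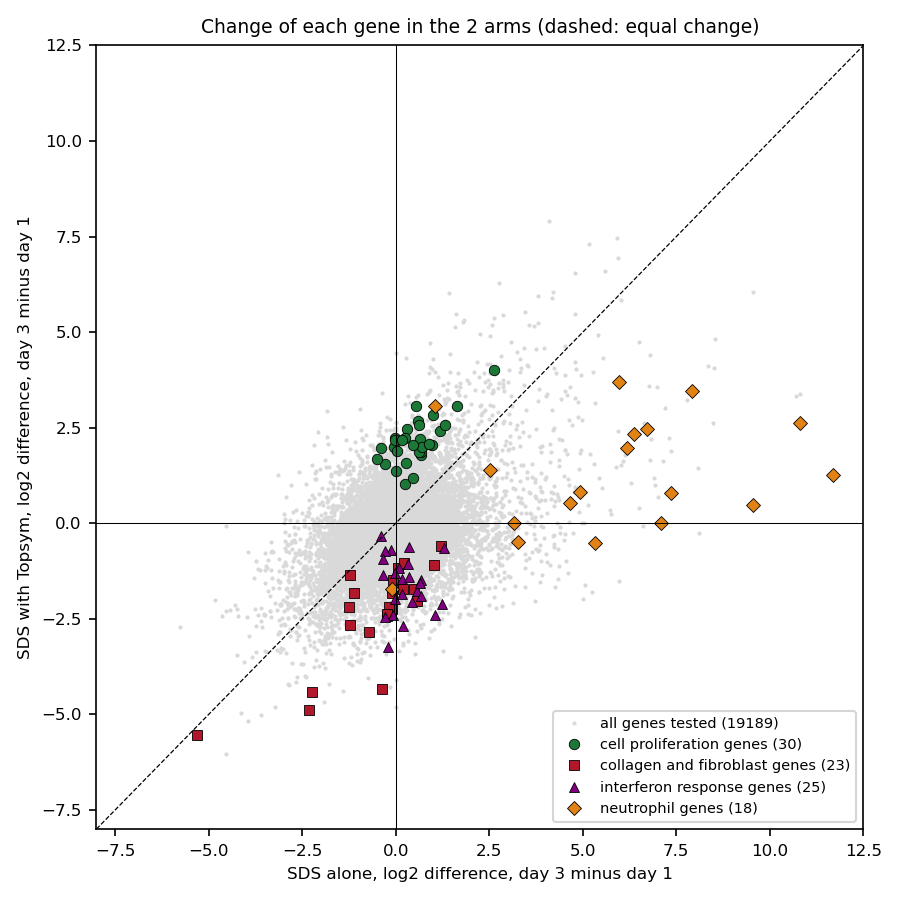
Log2 difference between day 3 and day 1 of each of 19189 genes in SDS with Topsym (vertical axis) and in SDS alone (horizontal axis), with 4 gene lists coloured and the line of equal change dashed. Proliferation genes lie above the line in all 30 cases, and most collagen, interferon and neutrophil genes lie below it, the neutrophil genes far to the right.

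Neutrophil, macrophage and vessel genes showed the reverse. In SDS alone, 16 of 18 neutrophil genes were higher (median 6.07), and 16 had a more negative change with Topsym, with 0 more positive. Mmp8, neutrophil collagenase, had 71.2 and 57.6 at day 3 of SDS with Topsym, against 52.3 and 40.2 at day 1, and 4086 and 4190.1 at day 3 of SDS alone, against 2.91 and 6.72 at day 1 (difference between arms -9.08, SE 0.77, adjusted p = 9.12e-08). S100a9 had 30140.5 and 29855 at day 3 of SDS alone, against 302 and 265 at day 1, a rise larger by 4.27 on the log2 scale than with Topsym. All 20 macrophage genes had the more negative change with Topsym (median -1.12 with Topsym and 1.23 in SDS alone), as did 13 of 17 endothelial genes. The summed level of red blood cell genes moved the same way, at 1728 and 1396 at day 3 of SDS with Topsym, against 3219 and 3533 at day 1, and 9412 and 11037 at day 3 of SDS alone, against 5529 and 5061 at day 1, and the part of blood content in these differences was not tested.

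Collagens and interferon genes also had the more negative change with Topsym. For Col3a1, SDS alone had 19519 and 18748 at day 3, against 24540 and 24664 at day 1 (difference -0.36), beside -4.34 with Topsym (difference between arms -3.97, SE 0.06, adjusted p = 6.02e-16). Of 23 collagen and fibroblast genes 21 passed that test and of 25 interferon genes 20, all with the more negative change under Topsym. Ifit3 in SDS alone had 234 and 263 at day 3, against 281 and 291 at day 1, values between those of the Topsym arm at day 3 and at day 1. Of 24 glucocorticoid targets 22 had a more negative change with Topsym. In SDS alone 15 of the 24 were higher at day 3 than day 1 and 6 were lower. Pdk4 had 41192 and 42555 at day 3 of SDS alone, against 17079 and 17311 at day 1 (difference 1.28). Fkbp5, Tsc22d3 and Il1r2 had differences of -0.11, -0.51 and -0.11 in SDS alone, and Zbtb16 had 0.25. Skeletal muscle genes, too, had the more negative change in 16 of 19 cases, with a summed level of 605377 and 602660 at day 3 of SDS alone, against 448724 and 442995 at day 1.

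Some lists moved the same way in both arms, and some members did not differ between the arms beyond their error. In SDS alone 17 of 22 stress keratin and cornified stress genes were higher and 2 lower (median 1.71). There 10 of 11 MHC class II genes were lower and 1 higher (median -1.84). The change was still more positive with Topsym for 13 of the 22, and more negative for 7 of the 11. T cell and NK cell genes had a median of -1.83 with Topsym and -1.31 in SDS alone, and 1 of 16, Trbc2, passed the test of the difference. For Cpz the difference between arms was -0.22 (SE 1.04, adjusted p = 0.907), and for Defb4 it was -0.49 (SE 0.92, adjusted p = 0.741). With SEs of this size, a difference between arms of more than 1 log2 unit in Cpz or Defb4 could have gone uncalled.

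**Figure D4:**
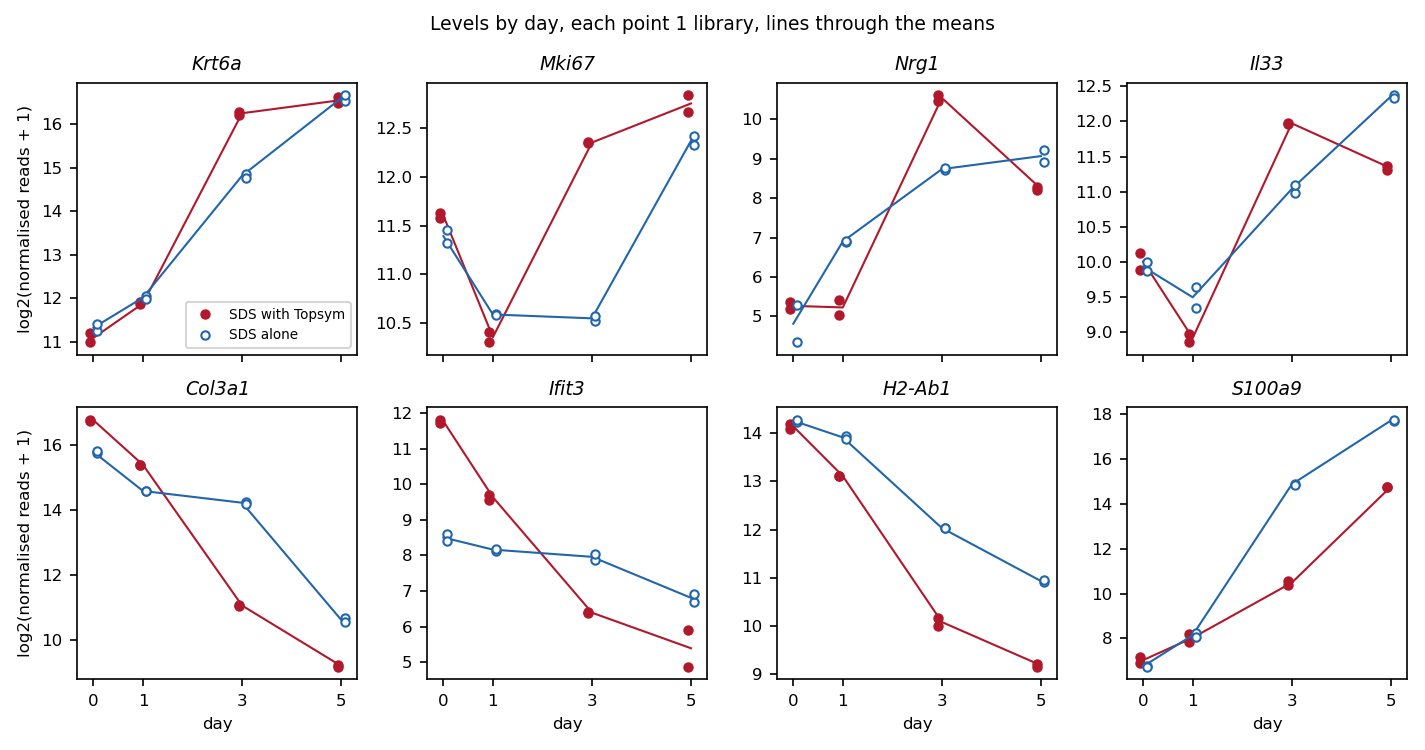
Level of 8 genes at days 0, 1, 3 and 5 in SDS with Topsym (filled) and SDS alone (open), as log2(normalised reads + 1); each point is 1 library and lines join the means. Krt6a, Mki67, Nrg1 and Il33 climb between days 1 and 3 with Topsym, Col3a1, Ifit3 and H2-Ab1 descend, and S100a9 is far higher in SDS alone at day 3.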

How the data were processed

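Total RNA of whole skin was sequenced with a strand-specific kit (Agilent SureSelect), per the labels' protocols. Per the submitters' processing notes, the tools were Trim Galore 0.6.7, HISAT2 2.2.1, featureCounts 2.0.3 and DESeq2 2.11.40.8, on mm10; no source used here gives the strand setting of the counting. The deposited values are a signal, read counts that the authors normalised by size factors, for 32078 genes in 16 libraries. Every value was a whole multiple of 1 step per library within 1e-04, so whole reads were recovered. The deposited normalised values were tested on a log2(value + 1) scale (limma 3.58.1, R 4.3.3, mean-variance trend) over all 8 groups, for the 19189 genes with at least 10 in at least 2 libraries. Log2 differences of this kind understate the change of low genes. EdgeR 4.0.16 and DESeq2 1.42.0 on the recovered reads, TMM factors, a pseudocount of 4, no filter, a robust prior, the compared libraries alone, a replicate block and each library left out were the alternatives. Ratios against few reads have 95% exact intervals, which like the floor of 3 reads cover counting error only. The limma step was tested on simulated data.

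The genes and lists were chosen with earlier results of these data known. Named genes are the 15 largest rises and falls among called genes whose libraries do not overlap and whose mean is at least 100 in the higher group (predicted models left out), the 8 largest differences between arms each way, up to 6 members of each list and a set of followed genes. Members of most counts of 5 or fewer are named besides; a few list members are not reported here by name. Symbols that occur more than once number 22. The series' design text describes another experiment and was not used.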

Additional observations from a re-analysis of the deposited data

Results flagged for a closer look

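The change between day 3 and day 1 differed between SDS with Topsym and SDS alone for 48 of the genes named, by limma's test of the difference itself with a Benjamini-Hochberg adjusted p under 0.05 over 19189 genes, of which 34.8% passed. Values below are the log2 change with Topsym minus the log2 change in SDS alone. No cause was tested for any of them.

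Epidermal and growth genes had the more positive change with Topsym. The differences were 1.75 for Krt6b, 1.57 for Krt6a and 1.24 for Krt16, the stress keratins. Their changes in SDS alone were 4.8, 2.8 and 2.7. They were 3.81 for Sprr2a3, 1.62 for Gsta4, 1.48 for Cstdc5 and 1.65 for Gpx2. Growth and division genes stood at 3.48 for Nrg1, 2.04 for Mki67, 3.52 for Depdc1a and 3.28 for Pclaf. The hyaluronan synthase gene Has3 stood at 3.06 and the amidase gene Pglyrp2 at 3.76. Cd207, langerin of Langerhans cells, stood at 1.02 through a smaller fall, -2.56 with Topsym and -3.59 in SDS alone. Tmem254c at 4.44 and the urinary protein gene Mup17 at 3.05 have near copies and rest on low counts.

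Neutrophil and inflammatory genes had the more negative change with Topsym. The differences were -10.42 for Retnlg, -9.08 for Mmp8, -8.18 for Ngp, -7.37 for Stfa2l1, -7.09 for Ly6g and -7.05 for Treml2. They were -4.27 for S100a9 and -4.03 for S100a8. The chitinase-like gene Chil3 of myeloid cells stood at -8.35, and the acute phase gene Saa3 at -5.48. Chemokines and cytokines stood at -7.43 for Cxcl5, -3.52 for Cxcl3, -3.48 for Il1b and -4.41 for Csf3. Acod1 stood at -3.72.

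Dermal, macrophage, muscle and fat genes were also more negative with Topsym. Collagens stood at -2.56 for Col1a1, -2.19 for Col1a2 and -3.97 for Col3a1, and matrix genes at -1.41 for Mfap4, -2.40 for Ssc5d and -1.76 for Tnc. The macrophage genes Fcrls and Retnla stood at -1.49 and -2.14. Muscle gave -1.72 for Casq1, fat gave -1.90 for Lep, and the calpain gene Capn11 gave -4.11. Glucocorticoid targets stood at -0.65 for Tsc22d3, -0.76 for Fkbp5, -1.26 for Zbtb16 and -2.21 for Pdk4, and the lipases at -1.50 for Pnpla2 and -0.33 for Lipe.

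Of these 48, the calls for Ly6g and Capn11 were lost with edgeR and DESeq2, and that for Ngp with edgeR. Those for Capn11, Lep, Tmem254c, Mup17, Cd207 and Lipe were lost with at least 1 library left out. Groups of 2 libraries allow no search for a single library that stands apart.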

How the results depend on the processing

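Calls of the 3 comparisons kept within 1.5 times their number under every alternative but a stricter call rule. With a log2 difference of at least 1 required, counts were 1082 higher and 1672 lower with Topsym, 1461 and 1272 in SDS alone, and 918 and 1764 for the difference between arms. Leaving out 1 library at a time gave 3457 to 3566 higher and 3434 to 3567 lower with Topsym, 3625 to 3852 and 2850 to 2952 in SDS alone, and 2637 to 2823 and 2932 to 3072 for the difference between arms; these fits have fewer samples. The replicate block gave 4213 higher and 4369 lower with Topsym, 4480 and 3501 in SDS alone, and 3153 and 3426 for the difference between arms. Deviations of libraries with the same number correlated by -0.03 to 0.03 over 28 pairs of groups, so the numbers were not taken to pair them. With Topsym, edgeR called 4844 higher and 4651 lower, DESeq2 4420 and 4824, and the fit of the compared libraries alone 4889 and 5284. TMM factors shifted the median gene by 0.04, and 52.8% of calls were then higher, against 49.1% without them. The difference between arms of Defb4, -0.49 and not called, was 0.27 with a pseudocount of 4 and -1.79 to 0.80 with 1 library left out (the highest without replicate 1 of SDS alone at day 1), and that of Cpz, -0.22 and not called, was -0.76 to 0.32 with 1 left out (the highest without replicate 1 of SDS with Topsym at day 3); the cause was not tested. Over all named genes and alternatives, the calls for SDS with Topsym stayed on their side of the threshold in 3417 cases, were lost in 150 and gained in 21. Depth limits genes near 0 reads at day 1, such as Sprr2a1, to the wide intervals given.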

Other observations

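The other days of SDS with Topsym place the interval in a longer course. Col1a1 had 136250 and 131795 at day 0, 61932 and 61718 at day 1, 2058 and 2145 at day 3 and 861 and 855 at day 5, lower on each later day. Krt6b had 80.4 and 99.97 at day 0, 511 and 511 at day 1, 50973 and 44848 at day 3 and 159903 and 147992 at day 5. H2-Ab1 had 17525 and 18651 at day 0, 8794 and 8884 at day 1, 1018 and 1146 at day 3 and 591 and 567 at day 5. Sprr2a3, without a read at day 1, had 14.1 and 30.9 at day 0 and 4264 and 3678 at day 5. These values are given as measured, since no test of them was planned.

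At day 0 the 2 arms stood apart for some genes. Col3a1 had 112702 and 110479 at day 0 of SDS with Topsym, against 55684 and 57716 at day 0 of SDS alone, and Mki67 had 3169 and 3048, against 2811 and 2565. Fkbp5 lay the other way, with 1724 and 1785 in SDS with Topsym, against 2246 and 2206 in SDS alone. The libraries of the arms did not overlap for these 3 genes, but the share of all genes without overlap at day 0 was not computed. Whether day 0 was before any treatment is not stated in the labels.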
